A study of Mus musculus with 8 samples.

Results

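The extracellular matrix is built from collagens and laminins, is held by cells through integrins and is cut by metalloproteases. The promoters of these genes were described here in germline stem (GS) cells, cultured spermatogonia that keep stem cell activity. The genes were taken by name from a table of promoter DNA methylation: every autosomal gene whose symbol began as a collagen, laminin chain, integrin chain, Adam, Mmp or Timp gene. This gave 67 genes with 1314 cytosines, of 9224 genes with 203645 cytosines in the table. They were 16 collagen genes, 5 laminin chains, 10 integrin alpha and 4 integrin beta chains, 11 Adam genes, 14 Adamts and Adamtsl genes, 6 Mmp genes and Col4a3bp. Col4a3bp encodes a ceramide transfer protein that belongs to none of these families and was taken in by its symbol. No Timp gene had a cytosine in the table, and neither had Itga6, which could not be analysed.

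DNA methylation had been measured by reduced representation bisulfite sequencing (RRBS), in which DNA is cut by MspI at the sequence CCGG and bisulfite turns unmethylated cytosines into bases read as T. The methylation level is the percent of reads that still show C. The 8 GS cell lines, with 1 library each, were given as wild-type B6 (C57BL/6) and untreated. All were grown in medium with FGF2, GDNF and knockout serum replacement. Lines 29, 37, 44 and 45 came from mice born after natural mating (control-F1), and lines 11, 17, 20 and 21 from mice born after intracytoplasmic sperm injection (ICSI-F1), in which a sperm is injected into an oocyte. The sperm for ICSI, which the study calls wild-type, came from B6 mice with an Egfp transgene. Its text does not state which of the 8 lines carried the transgene. All 8 lines had been started from CD9-expressing spermatogonia sorted from mature testes, and the comparison asks whether ICSI left a mark on the germline. Per the study's methods, lines 29, 37, 11 and 17 had been sequenced to fewer reads (called library set 1 here) than lines 44, 45, 20 and 21 (library set 2), and each set holds 2 lines of each group. Lines are the replicates. The line numbers are also numbers of different F1 mice in the study's supplement, though no label ties a line to a mouse. Methylation gives no transcript level, so the cell type could not be checked on expression. The promoters of 9 of 15 spermatogonial marker genes had cytosines, and all 9 were under 10% methylated outside CCGG, where 89.2% of all promoters were, so that this says little of the cell type.

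Integrins are receptors made of an alpha and a beta chain. Laminin, a trimer of alpha, beta and gamma chains, is a main protein of the basement membrane on which spermatogonial stem cells sit, and the pair of Itga6 and Itgb1 forms a laminin receptor used to enrich these cells. ADAM proteins are membrane proteins with a disintegrin and a metalloprotease domain, several of which act on sperm, whereas ADAMTS and MMP proteins cut matrix. Promoters rich in CpG dinucleotides lie in CpG islands and are mostly unmethylated in cells, whether or not the gene is on.

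The Itgb1 promoter shows how the values are laid out. The stretch before its transcription start on chromosome 8 (chr8:128685464-128685653, mm10, plus strand) is given as 1 line. It is printed because it is the stem cell integrin in the table, and the capitals mark the CpGs that were covered on at least 1 strand.
Itgb1: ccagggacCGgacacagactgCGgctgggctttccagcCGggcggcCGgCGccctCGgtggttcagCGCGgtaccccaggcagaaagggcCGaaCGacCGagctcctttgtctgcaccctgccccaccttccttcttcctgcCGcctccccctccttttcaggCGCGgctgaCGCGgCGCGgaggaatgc

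Itgb1 (ENSMUSG00000025809) had 19 cytosines, all in a CpG island and 10 to 182 bp upstream of the start. Its promoter level, the mean over these cytosines, was 5.45%, 6.45%, 7.40% and 7.15% in control-F1 lines 29, 37, 44 and 45. The ICSI-F1 lines 11, 17, 20 and 21 had 7.06%, 7.27%, 6.97% and 7.41%. The 4 ICSI-F1 lines lay close together and in the upper part of the control-F1 range, and the groups overlapped. The group means were 6.61% ± 0.873 (SD, n = 4) and 7.18% ± 0.197 (SD, n = 4), and the difference of 0.565 percentage points did not pass the exact two-sided permutation test (p = 0.314, where 0.0286 is the smallest p that 4 lines against 4 allow). It was 1.22 points in library set 1 and −0.087 points in library set 2.

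A single cytosine made most of the Itgb1 level. On the minus strand 143 bp upstream, at position 128685511, the level was 95.0% to 100% in the 8 lines (mean 98.4%, 20 to 48 scaled reads per line). The 18 others had means of 0% to 6.74%. The cytosine at position 128685511 lies in CCGG, the sequence that MspI cuts. Over the 16 cytosines of Itgb1 outside CCGG the promoter level was 1.47%.

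In 37 of the 67 promoters a CCGG cytosine had a mean level of 30% or more while the promoter level outside CCGG was under 10%. Of the 56 cytosines of this kind, 27 had over 80%. Sequences around 6 high CCGG cytosines are printed, in the direction of the strand that was read as methylated and with CCGG in capitals. The measured cytosine is the second base of the capitals. The first is from Itgb1 and the others, chosen after their values were seen, are from Itga4, Adam17, Mmp15, Col5a3 and Itgb5.
Itgb1, chr8:128685495-128685526, minus: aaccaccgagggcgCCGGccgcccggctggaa
Itga4, chr2:79255401-79255432, minus: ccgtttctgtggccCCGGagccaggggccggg
Adam17, chr12:21373704-21373735, minus: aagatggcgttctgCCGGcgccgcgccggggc
Mmp15, chr8:95351504-95351535, plus: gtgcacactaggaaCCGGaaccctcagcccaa
Col5a3, chr9:20815087-20815118, plus: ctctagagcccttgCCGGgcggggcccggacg
Itgb5, chr16:33829580-33829611, plus: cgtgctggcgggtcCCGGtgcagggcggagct

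In the Adam17 promoter, which belongs to the protease that sheds TNF from the cell surface, the cytosine shown had 99.3%, and the cytosine of the same CpG on the opposite strand had 4.02%. In Col5a3, a chain of type V collagen, the pair of strands had 99.1% and 4.96%. In Mmp15, a membrane-bound matrix metalloprotease, they had 99.0% and 8.61%. In Itga4, the alpha chain of the fibronectin receptor VLA-4, they had 99.2% and 12.5%. Itgb5, which pairs with the alpha chain Itgav, had 97.5% and 21.6%. The opposite cytosine of the Itgb1 CpG was not in the table. In each of these 5 pairs 1 strand was read as nearly fully methylated and the other was not.

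Over the members, 67 CpGs in CCGG and 403 CpGs outside it had both strands measured. The strands differed by 30 percentage points or more at 36 of the 67 CpGs in CCGG (53.7%) and at 0 of the 403 outside it. In the whole table this was so at 42.8% of 10917 CpGs in CCGG and at 1 of 69822 outside it. The strand with the higher level had fewer reads at 35 of the 36 CpGs, all but that of Itga4, with a median of 34.25 scaled reads against 90.5 on the strand with the lower level. What gave CCGG cytosines these levels was not tested.

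**Figure D1:**
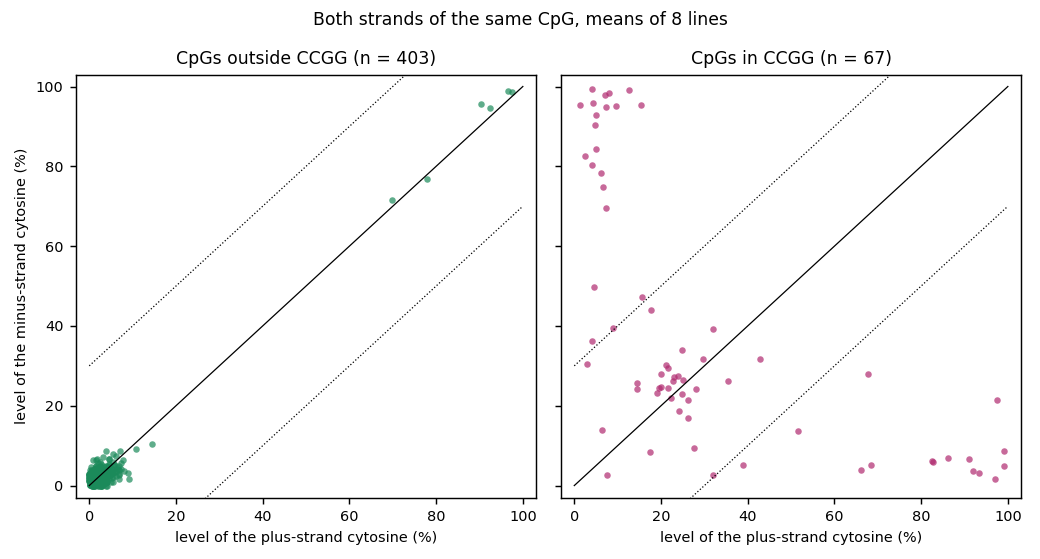
Methylation level of the plus-strand cytosine (x, percent) and of the minus-strand cytosine (y, percent) of the same CpG in the 67 promoters, each point 1 CpG and each value the mean of 8 lines; the solid line marks equal levels and the dotted lines a difference of 30 percentage points. The 403 CpGs outside CCGG (left) all lie between the dotted lines, and 36 of the 67 CpGs in CCGG (right) lie at or beyond them.

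The cytosines in CCGG fell into low, middle and high levels. Of the 255 member cytosines in CCGG, 120 had a mean level under 10%, 67 had 10% to 30% (median 23.2%) and 68 had 30% or more. Of the 1059 outside CCGG, 1034 had a level under 10%, 3 had 10% to 30% and 22 had 30% or more. The mean level was 27.4% in CCGG and 4.11% outside. The whole table was alike, at 26.5% in CCGG and 3.69% outside. All 830 member cytosines that lay in CpG islands and outside CCGG were under 10% methylated.

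Promoter levels are given over all cytosines and over the cytosines outside CCGG, a measure chosen after these values were seen. It could be had for 61 promoters, and the other 6 (Adamts5, Col8a2, Col9a2, Itga4, Itga5 and Lamb1) had cytosines in CCGG only. Outside CCGG, 55 of the 61 promoters had levels of 0.65% to 6.41% (median 1.98%). The next promoter above these, Col6a5, had 35.2%. With CCGG the same 55 had levels of 0.65% to 24.7% (median 6.83%). In these 55 promoters 56 cytosines in 37 genes had a mean level of 30% or more, and all 56 lay in CCGG. Since the 55 were taken by their low level outside CCGG, this is in part set by the choice.

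**Figure D2:**
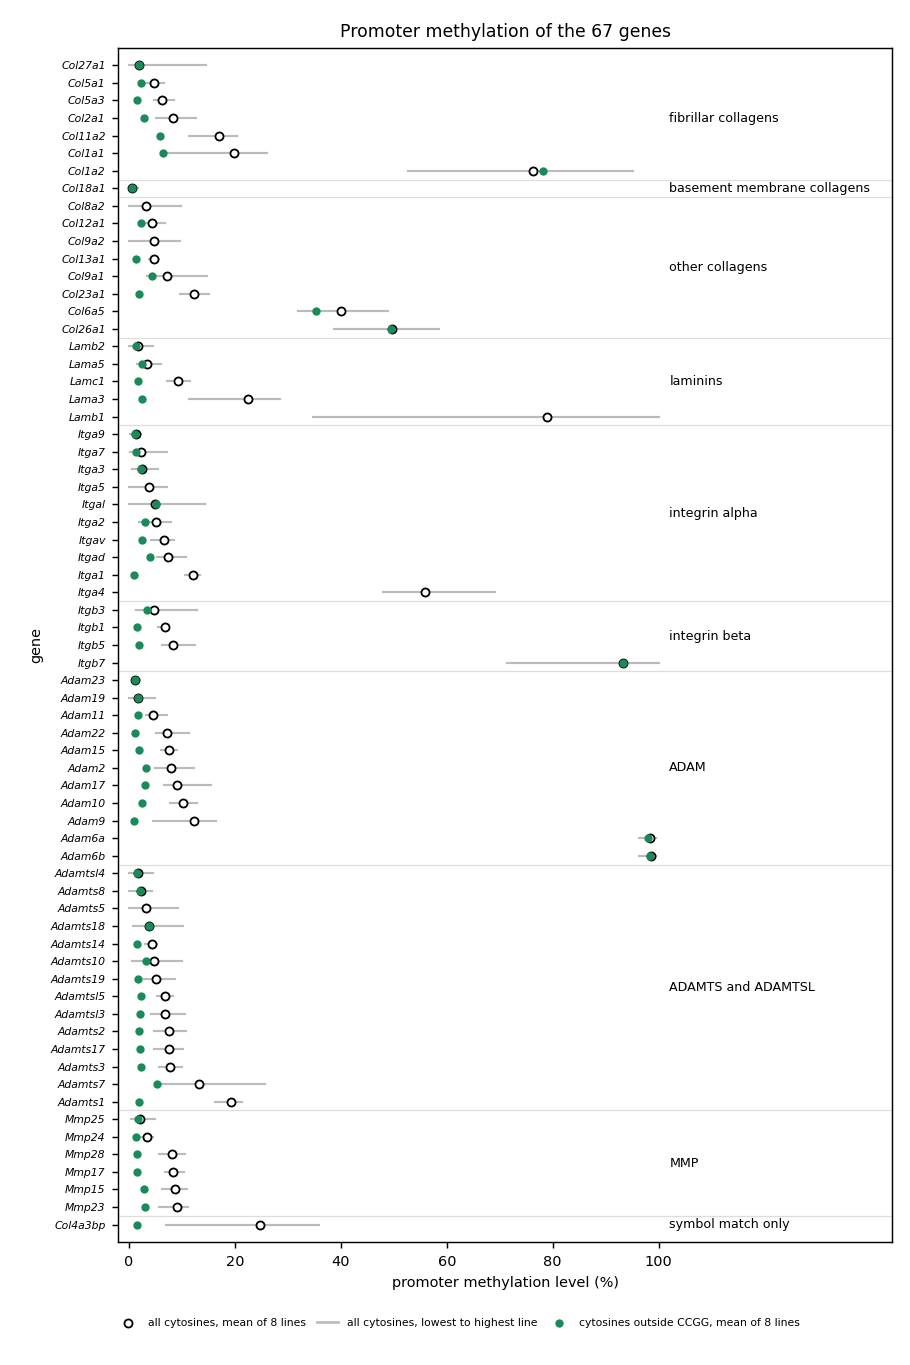
Promoter methylation level (x, percent) of the 67 genes (y), grouped by family and ordered by level within each; open circles are the mean of 8 lines over all cytosines, grey bars run from the lowest to the highest line and filled circles are the mean over cytosines outside CCGG, which 6 genes lack. Only Col1a2, Col6a5, Col26a1, Itgb7, Adam6a and Adam6b have a filled circle above 6.41%, among the 61 genes that have one.

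Itgb1 was next compared with the other members, line by line. Its level was below the mean of the other 66 promoters in all 8 lines, by 8.30 points on average ± 1.49 (SD over 8 lines). It stood in the middle of them by rank, as the 33rd lowest of 67, and it lay above their median in 4 lines and below it in 4, by 0.0306 points on average. The mean of the others was raised by a few promoters with high levels. Outside CCGG, Itgb1 was the 12th lowest of 61 and was 0.509 points below the median of the others, lower in 6 of 8 lines. Among the 14 integrin genes it was the 9th lowest over all cytosines, and among the 12 with cytosines outside CCGG it was the 4th lowest. These ranks are a description, since genes are not replicates.

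Most other integrin promoters were low as well. Itga9, an alpha chain that binds tenascin, had the lowest level of the alpha chains with 3 or more cytosines, 1.4% over 21 cytosines. Itga1, the alpha chain of a collagen receptor, had 12.2% over 13 cytosines and 0.984% outside CCGG. In Itga1 control-F1 lines had 10.7%, 10.6%, 12.2% and 12.7% and ICSI-F1 lines 12.5%, 12.4%, 12.6% and 13.4%, with group ranges that overlapped (exact permutation p = 0.114). The difference of 1.17 points in Itga1 became −0.109 points outside CCGG. Itga7, a laminin-binding alpha chain, had 0.962%, 3.62%, 7.15% and 1.97% in the control-F1 lines against 0.235%, 1.95%, 1.15% and 1.1% in the ICSI-F1 lines, also overlapping (exact permutation p = 0.171). Itgal, the alpha chain of LFA-1 on leukocytes, had 5.01% over 5 cytosines, and Itgb3, a beta chain that pairs with Itgav, had 4.78% over 15 cytosines. Itga4 and Itgb7, named here after their values were seen, had higher levels. The 2 cytosines of Itga4, both in CCGG, gave 55.8%, from 48.0% to 69.0% in the 8 lines. Itgb7 is a leukocyte beta chain. Its 1 cytosine, 147 bp upstream and outside CCGG, had 93.3% over the 8 lines, from 71.4% in ICSI-F1 line 20 to 100% in ICSI-F1 line 21.

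Among the laminins, Lamb2 had the lowest promoter level, 1.81% over 4 cytosines, and Lama3, a chain of epithelial laminin, had 22.5% over 4 cytosines. Outside CCGG both were low, at 1.41% and 2.41%. Lamc1, the gamma chain common to most laminins and named after its values were seen, had 50 cytosines and 9.21%. It had 1.65% outside CCGG, and 4 cytosines of Lamc1 in CCGG had a level of 30% or more. Adam10 was the other gene with 4 such cytosines. Lamb1, also named after its values were seen, had 1 cytosine, in CCGG, with 34.7% in control-F1 line 37 and 71.9% to 100% in the other 7 lines.

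The collagens differed widely among themselves. The 7 fibrillar collagen promoters, those of chains that form the banded fibrils, had levels outside CCGG of 1.56% to 78.2%, and 6 of 7 were under 10%. Col18a1, the basement membrane collagen in the table and the source of endostatin, had the lowest level outside CCGG of the 61 genes that have one, 0.65% over 5 cytosines. Col5a1 had 4.69% over 25 cytosines, and Col12a1, which binds to fibrils, 4.28% over 50. Col23a1, a membrane-spanning collagen, had 12.2% over 15 cytosines and 1.93% outside CCGG. Col1a1, a chain of type I collagen and a fibroblast marker, had 19.9% over 4 cytosines and 6.41% at its 1 cytosine outside CCGG.

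In Col26a1 and Col6a5 the level was low at the start and high further upstream. Col26a1, a minor collagen first found in testis and ovary, had 17 cytosines. Its 7 cytosines within 90 bp of the start had means of 1.89% to 8.84%, and the 10 cytosines beyond 400 bp had means of 69.3% to 95.7%. Col6a5, a chain of type VI collagen, had 8 cytosines outside CCGG at 43 to 120 bp, with means of 3.69% to 7.84%. The 4 outside CCGG at 792 to 954 bp had 93.5%, 89.9%, 94.3% and 97.7%. Both genes had a methylated stretch of promoter beyond an unmethylated one. The distant stretch of Col26a1 (chr5:136884020-136884183, mm10) and the stretch at its start (chr5:136883199-136883309) are given on the minus strand, the strand of the gene, with covered CpGs in capitals, because the largest difference between the groups lay in the first of them.
Col26a1, distant: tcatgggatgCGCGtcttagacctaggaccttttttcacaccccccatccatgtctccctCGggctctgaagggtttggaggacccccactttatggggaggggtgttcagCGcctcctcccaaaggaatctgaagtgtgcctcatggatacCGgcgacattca
Col26a1, at the start: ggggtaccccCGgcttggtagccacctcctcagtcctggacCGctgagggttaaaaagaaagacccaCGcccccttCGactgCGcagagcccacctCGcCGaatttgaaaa

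**Figure D3:**
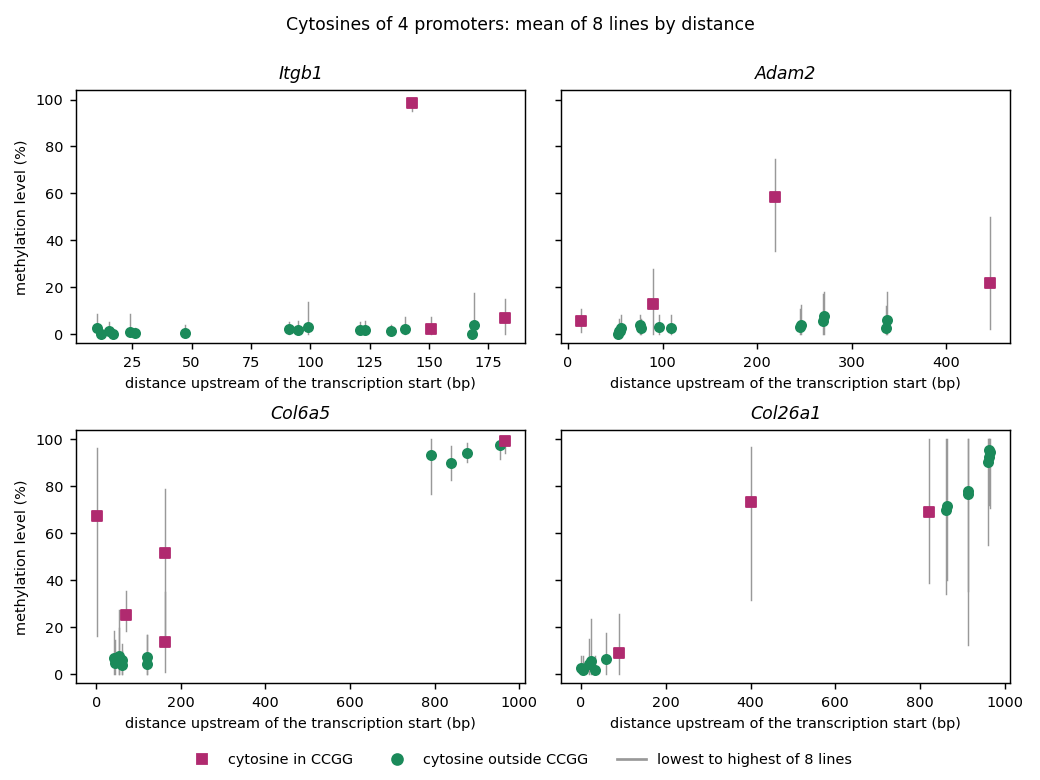
Methylation level (y, percent) of each covered cytosine of Itgb1, Adam2, Col6a5 and Col26a1 by its distance upstream of the transcription start (x, base pairs); points are means of 8 lines, squares are cytosines in CCGG, circles those outside it, and grey bars run from the lowest to the highest line. In Itgb1 1 square stands at 98.4% above 18 low cytosines, and in Col6a5 and Col26a1 circles are high at 792 to 964 bp only.

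This difference with distance was not general. Over all members, cytosines outside CCGG had a median level of 1.65% within 100 bp of the start (475 cytosines in 48 genes), 1.94% from there to 200 bp, 2.16% from there to 400 bp and 3.22% beyond 400 bp (136 cytosines in 19 genes). The share with 30% or more was 0% within 100 bp and 15.4% beyond 400 bp, where 21 of the 22 highly methylated cytosines outside CCGG lay. The 1 left over was that of Itgb7.

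The Adam genes of sperm differed from one another. Adam2 encodes fertilin beta, a sperm surface protein made in germ cells after the stem cell stage. Its promoter had 8.01% over 18 cytosines and 3.27% outside CCGG, with lines from 4.90% to 12.3%. Adam6a and Adam6b, a pair of copies inside the immunoglobulin heavy chain locus on chromosome 12 that are needed on sperm for male fertility, were nearly fully methylated. Stretches with covered cytosines of both (chr12:113543050-113543162 and chr12:113488608-113488720, mm10, plus strand) are printed to show how alike they are, with covered CpGs in capitals.
Adam6a: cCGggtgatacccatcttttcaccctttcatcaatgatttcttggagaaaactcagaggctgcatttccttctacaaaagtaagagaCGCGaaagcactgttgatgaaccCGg
Adam6b: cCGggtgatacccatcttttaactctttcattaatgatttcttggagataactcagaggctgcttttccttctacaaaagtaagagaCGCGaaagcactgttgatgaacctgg

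These stretches were identical at 107 of 113 bases, and how reads were shared between the copies was not tested. The promoter level of Adam6a was 97.0% to 99.4% in the control-F1 lines and 96.4% to 99.5% in the ICSI-F1 lines. That of Adam6b was 97.9% to 99.5% and 96.3% to 99.3%. In both genes cytosines in and outside CCGG were alike, with means of 96.7% to 99.6% at single cytosines. Both had 6 cytosines, 747 to 901 bp upstream of the start and outside any CpG island.

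The other proteases had low promoters. Adam23, which lacks protease activity and binds integrins, had the lowest Adam level, 1.22% over 33 cytosines. Adam9, a widely expressed membrane protease, had 12.2% over 6 cytosines and 1.03% outside CCGG. The Adamts genes, secreted proteases, and the Adamtsl genes, which lack the protease domain, ran from 1.77% in Adamtsl4 to 19.3% in Adamts1, and Adamts1 had 1.92% outside CCGG. Adamts19 and Adamtsl5 had the most cytosines of all members, 78 and 71, with levels of 5.08% and 6.74%. Mmp25, a membrane-anchored protease of leukocytes, had 2.06%, Mmp24, a membrane protease of the nervous system, 3.39% over 60 cytosines, and Mmp23 9.02% over 37. All 6 Mmp promoters were under 10% methylated on both measures.

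Line 37, a control-F1 line, stood apart at the CCGG cytosines. Over the 56 CCGG cytosines with 30% or more in the low promoters, its mean level was 53.8%, and the other 7 lines had 67.8% to 75.7%. It was the lowest line at 31 of the 56. In the whole table it was the lowest line at 44.4% of 9959 cytosines in CCGG with 30% or more, and at 22.1% of 3029 outside CCGG. At the 67 CCGG cytosines of 10% to 30% it had 23.3%, inside the range of the others. Over the 56 cytosines the difference, ICSI-F1 minus control-F1, was 3.47 points with line 37 and −1.2 points without it. The promoter levels of Lamb1, Lama3, Col1a1, Adam9 and Col4a3bp were lowest in line 37 as well.

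The comparison of ICSI-F1 with control-F1 GS cells was made first at single cytosines. The methods of the study call a change of over 20% between the groups and leave out cytosines where any line goes the other way. As read here, a hypermethylated cytosine has an ICSI-F1 mean over 20 points above that of control-F1. No ICSI-F1 line may lie at or below the control-F1 mean, and a hypomethylated cytosine is the reverse. This reading differs from how the study applied its rule. It called a larger share of promoter cytosines, in each direction, than the study reports. A cytosine called here need not be one that the study called. Of the 1314 member cytosines 2 were hypermethylated, where 0.274% of all promoter cytosines were, and 0 were hypomethylated, where 0.0506% were. The 2 were in Col1a2 and Col26a1, both collagen genes and both outside CCGG.

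Col1a2 is the second chain of type I collagen and, like Col1a1, a fibroblast marker. It had 2 cytosines, 734 and 741 bp upstream of the start and outside any CpG island. They lie in the stretch chr6:4504053-4504101 (mm10, plus strand), with both CpGs in capitals.
Col1a2: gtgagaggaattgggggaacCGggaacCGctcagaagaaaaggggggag

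At the second of them, position 4504080, control-F1 lines 29, 37, 44 and 45 had 63.9%, 75.4%, 72.7% and 60.0%. ICSI-F1 lines 11, 17, 20 and 21 had 75.0%, 95.2%, 88.9% and 94.7%. Of the ICSI-F1 lines 3 lay above every control-F1 line, and line 11 lay just under control-F1 line 37. The means were 68.0% ± 7.24 and 88.5% ± 9.43 (SD, n = 4 each). The difference of 20.5 points, 15.5 in library set 1 and 25.4 in library set 2, did not pass the exact permutation test (p = 0.0571), and the adjusted p of the promoter test of Col1a2 by limma was 0.999. With 1 line left out the difference at this cytosine was 17.8 to 25.0 points. Coverage was 10 to 69 scaled reads per line, so that at the lowest a single read moved the level by 10 points. Line 45 had 10 reads and line 44 had 11. The neighbouring cytosine of Col1a2 in CCGG had 74.2% over the 8 lines. Over both cytosines the promoter level of Col1a2 had a control-F1 mean of 66.4% ± 11.9 and an ICSI-F1 mean of 86.0% ± 11.8 (SD, n = 4 each). The difference was 19.6 points (exact permutation p = 0.0857). In its expression methods the study removed embryonic fibroblasts from GS cultures before samples were collected. How far fibroblast content differed between these lines was not tested.

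In Col26a1, the cytosine at position 136884122, 913 bp upstream, had 90.6%, 96.9%, 63.8% and 12.5% in control-F1 lines 29, 37, 44 and 45. The ICSI-F1 lines 11, 17, 20 and 21 had 92.1%, 85%, 82.0% and 100%. The 12.5% of line 45 set the low control-F1 mean, and the other 3 control-F1 lines overlapped with the ICSI-F1 lines. The means were 66.0% ± 38.4 and 89.8% ± 8.03 (exact permutation p = 0.314). The difference was 23.8 points, with −5.21 points in library set 1 and 52.8 points in library set 2. Without line 45 it was 5.99 points, and with any other line left out 20.4 to 34.1 points. The opposite strand of this CpG, at position 136884123, also had its lowest level in line 45, at 35.5%, so that the low value of that line was read on both strands. Over the whole Col26a1 promoter the control-F1 lines had 46.6%, 46.0%, 58.5% and 38.6% and the ICSI-F1 lines 49.0%, 48.4%, 51.9% and 58.0% (exact permutation p = 0.343).

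At 2 more cytosines the means differed by over 20 points, with 3 of 4 ICSI-F1 lines above the control-F1 mean. In Col26a1 at position 136884072, 863 bp upstream, the difference was 22.3 points (exact permutation p = 0.229). In Adam22, whose product is a receptor without protease activity, the cytosine 12 bp upstream at position 8368172 lies in CCGG and differed by 20.8 points (exact permutation p = 0.114). Its levels were 32.4%, 8.22%, 30.8% and 31.6% in control-F1 lines 29, 37, 44 and 45, and 46.2%, 22.6%, 72.2% and 45% in ICSI-F1 lines. Line 37 was again the lowest. The opposite strand of this CpG of Adam22 had 4.06% over the 8 lines. No member cytosine had an ICSI-F1 mean more than 20 points lower.

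**Figure D4:**
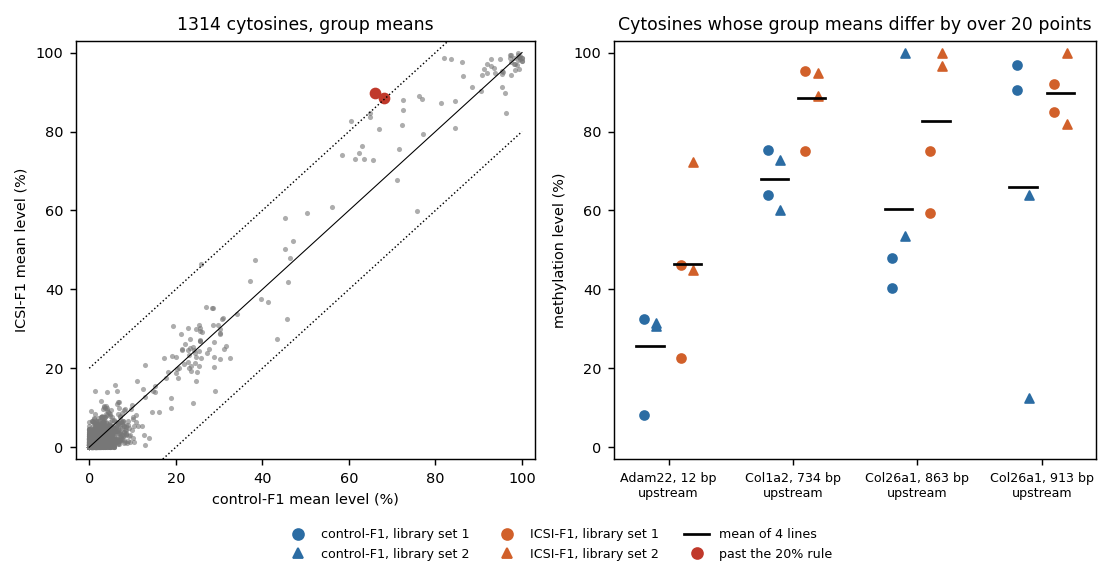
Left, mean methylation level (percent) of the control-F1 lines (x) and the ICSI-F1 lines (y) at the 1314 cytosines, with a solid line at equality, dotted lines at a difference of 20 percentage points and larger points for the 2 cytosines past the 20% rule. Right, level (percent) in each of 8 lines at the 4 cytosines whose means differ by over 20 points, circles for library set 1, triangles for library set 2 and bars for group means; the lines of the groups overlap at all 4.

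The replicate tests gave no member. In a quasi-binomial model fitted to all cytosines that varied, with dispersion moderated across them by limma, 0 of 1264 member cytosines passed a false discovery rate of 0.05, where 0% of all 196818 did. At an unadjusted p under 0.05 there were 64 member cytosines (5.06%), 22 higher and 42 lower in ICSI-F1, against 7.06% of all. The smallest p was that of Col6a5 at position 105960687, 8.91 points higher in ICSI-F1 lines (adjusted p = 0.702). The promoter test, limma on the log2 ratio of methylated to unmethylated reads summed over a promoter, gave 0 of 67 members and 0% of 9224 promoters. At an unadjusted p under 0.05 it gave 1 member (1.49%), Col1a2, against 3.23% of all promoters. Outside CCGG the promoter test gave 4 of 61 members (6.56%) at this p, 1 higher and 3 lower in ICSI-F1, against 2.68% of all promoters. None of these passed the false discovery rate. The exact permutation test gave 0 of 67 members under 0.05 and 135 (1.46%) of all 9224 promoters. With 4 lines against 4, only groups that do not overlap reach such a p. This is therefore the same result as the count of overlapping groups below.

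No member promoter had groups that did not overlap, where 0.672% of all promoters had every ICSI-F1 line higher and 0.791% every ICSI-F1 line lower. The difference in promoter level was within 5 percentage points for 65 of 67 members (97.0%), against 93.1% of all promoters. The 2 beyond it were Col1a2 and Lamb1. The median difference over the members was −0.338 points, with 27 higher and 40 lower in ICSI-F1, and −0.161 points over all promoters, of which 55.4% were lower. Outside CCGG 21 were higher and 40 lower of 61, with a median of −0.349 points, against −0.330 points over all promoters. The sign of the difference was the same in both library sets for 34 of 67 members (50.7%), against 50.5% of all promoters.

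The mean promoter level over the 67 members was 14%, 12.6%, 17.7% and 15.5% in control-F1 lines 29, 37, 44 and 45. ICSI-F1 lines 11, 17, 20 and 21 had 13.4%, 14.6%, 16.6% and 16.2%. The means were 15.0% ± 2.16 and 15.2% ± 1.47 (SD, n = 4 each), a difference of 0.218 points, smaller than the spread between lines. It was 0.644 points in library set 1 and −0.209 points in library set 2. Outside CCGG the means were 9.60% ± 1.25 and 9.49% ± 0.992. By family, the fibrillar collagens differed by 2.61 points and the laminins by 2.67 points, with ICSI-F1 higher, and Col1a2 and Lamb1 were the members with the largest differences. Outside CCGG the fibrillar collagens differed by 2.10 points. There Col1a2 differed by 20.5 points at its 1 cytosine and Col11a2 by 0.428 points. Col1a1, Col2a1, Col5a1, Col5a3 and Col27a1 differed by −0.427, −1.23, −0.349, −0.571 and −3.64 points. The laminins differed by −0.526 points outside CCGG, without Lamb1, whose 1 cytosine lies in CCGG and was lowest in line 37. The integrin beta chains differed by −1.56 points, with Itgb7 at −4.13 (1 cytosine), Itgb5 at −1.36, Itgb3 at −1.31 and Itgb1 at 0.565. The integrin alpha chains differed by −0.786 points, and by −0.642 points outside CCGG, which leaves out Itga4 and Itga5. The Adamts and Adamtsl genes differed by −0.470 points and the Mmp genes by −0.467 points.

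Among members with 3 or more cytosines, the largest positive differences in promoter level, ICSI-F1 minus control-F1, were in Col6a5 (4.80 points), Col26a1 (4.37), Adam9 (2.96), Col1a1 (2.91) and Adam22 (2.15). The largest negative ones were in Itgal (−2.42 points), Itga7 (−2.32), Col23a1 (−2.24), Adamts10 (−2.16) and Adamts18 (−2.05). The exact permutation p of these 10 ran from 0.171 to 0.657. In Col6a5 control-F1 lines had 36.3%, 32.0%, 41.3% and 40.8% and ICSI-F1 lines 43.5%, 35.9%, 41.3% and 48.9%, overlapping groups. In Col23a1 they had 11.2%, 11.9%, 15.0% and 15.2% against 11.9%, 11.5%, 9.67% and 11.3%. The high control-F1 values of Col23a1 were both in library set 2, where the difference was −4.63 points, and in library set 1 it was 0.138 points. In Col1a1 line 37 had 6.76% and the other 3 control-F1 lines 21.7% to 22.8%, and outside CCGG the difference in Col1a1 was −0.427 points. In Adam9 the difference outside CCGG was 1.65 points, in Adam22 0.355 points, in Itga7 −1.05 points and in Col23a1 −0.936 points. For these 5 genes the difference was smaller in size once the CCGG cytosines were left out, and in Col1a1 it changed sign. Of the other 5, it was slightly smaller outside CCGG in Col6a5 (4.34 points), Itgal (−2.34) and Adamts10 (−2.03). It was larger there in Col26a1 (4.99 points) and Adamts18 (−2.39).

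The levels also moved with library set. Library set 2 was higher than set 1 in 62 of 67 member promoters, with a median difference of 2.24 points, and in 8287 of the 9224 promoters of the table, with a median of 2.12 points. In the mean over members the 4 lines of set 2 (15.5% to 17.7%) lay above the 4 of set 1 (12.6% to 14.6%). A limma fit of library set with group as a covariate, chosen after the values were seen, gave 4 members at a false discovery rate of 0.05, where 8.77% of all promoters passed. They were Adamts18 (adjusted p = 0.0416), Mmp25 (0.0461), Adamts19 (0.0479) and Itgb3 (0.0482), all higher in set 2. With any 1 of the 8 lines left out, 0 members passed, and of all 9224 promoters 0 to 2 did in place of 809.

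Adamts18, a secreted protease, had 0.797%, 1.89%, 0.711% and 1.46% in set 1 lines 29, 37, 11 and 17. In set 2 lines 44, 45, 20 and 21 it had 10.2%, 6.67%, 6.83% and 2.37%. The sets did not overlap, and every value of Adamts18 stayed near or under 10%. Itgb3 had 2.41%, 1.67%, 1.28% and 3.72% in set 1 and 12.9%, 4.77%, 4.46% and 7.06% in set 2. Mmp25 had at most 1.18% in set 1 and at least 2.04% in set 2. In Adamts19 set 1 had 3.62% and set 2 had 6.54% on average. Among the 3 members with the largest difference in level between the sets, of those with 3 or more cytosines, was Adamts7, a protease of cartilage matrix, with lines from 5.47% to 25.7%. At high CCGG cytosines set 2 was 8.39 points above set 1 over the 56 cytosines, and at member cytosines outside CCGG under 10% it was 1.86 points above.

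**Figure D5:**
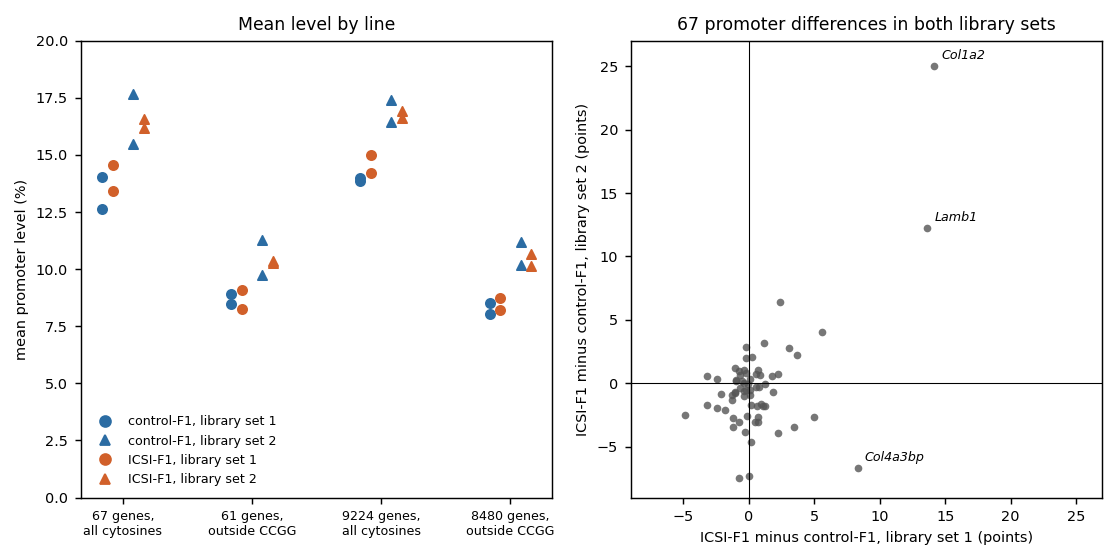
Left, mean promoter level (y, percent) of each line over the members and over all genes of the table, with and without cytosines in CCGG; circles are library set 1, triangles library set 2, blue control-F1 and orange ICSI-F1. Right, difference in promoter level (ICSI-F1 minus control-F1, percentage points) of the 67 members in library set 1 (x) and set 2 (y); in the left panel all triangles lie above all circles of their column, and in the right panel Col1a2 and Lamb1 lie apart from the rest.

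Other matrix and adhesion genes were counted beside the members. Of 63 listed genes, which include fibulins, thrombospondins, lysyl oxidases, syndecans and focal adhesion proteins, 27 had cytosines in the table, 686 in all. None of these was past the 20% rule in either direction. Outside CCGG 24 of the 27 promoters were under 10% methylated, and the 3 above were Loxl1, Pxn and Thbs2, named after their values were seen. The median difference was −0.292 points, with 12 genes higher and 15 lower in ICSI-F1. Cd9, the surface protein by which the spermatogonia had been sorted and a partner of integrins in the membrane, had 3.41%, 6.5%, 8.46% and 11.1% in control-F1 lines and 2.11%, 3.60%, 10.4% and 7.19% in ICSI-F1 lines. These values of Cd9 overlapped (exact permutation p = 0.543), and the 4 highest were those of library set 2.

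The sequence CCGG is common near starts. In RefSeq promoters of 300 bases (GRCm38.p6), CCGG stood in 52.8% of 32851 promoters of all genes and in 88.7% of the 53 promoters that could be matched to 47 member genes. The GC box, GGGCGG, searched on both strands, stood in 35.7% and 69.8%. RRBS reads start at CCGG, so that genes with CCGG near their start are more likely to be in the table, and the shares are a description. None of the single cytosines of Col1a2, Col26a1, Itgb1, Adam6a, Adam6b, Itgb7 and Col6a5 looked up in GENCODE M21 lay in an annotated exon or gene, and all lie upstream of a start.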

How the data were processed

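Per the study's methods, RRBS libraries were made with a Zymo-Seq kit, sequenced as paired reads of 150 bp, trimmed with Trim Galore 0.5.0 (RRBS and non-directional options), aligned to mm10 with Bismark 0.20.0 and counted with methylKit. The submitters' processing notes give methylKit 1.16.0. The authors removed cytosines under 10 reads or above the 99.9th percentile, scaled coverage between lines, kept strands separate and joined the 8 lines. Promoters were the 1 kb upstream of Ensembl 87 starts. The deposited values are methylated, unmethylated and total reads per cytosine and line after scaling, entered as a score because they are reads rounded after normalization by the authors. No per-sample column was left unused.

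The level was methylated over methylated plus unmethylated scaled reads, a promoter level the unweighted mean over its cytosines, and a group value the mean of 4 lines. Median scaled coverage of member cytosines was 69 to 86 per line (10 at the lowest). Reads carried no molecular identifiers, and coverage limits counting error only. CCGG was read from GRCm38.p6, where 203644 of 203645 cytosines were in CG. The site test was a quasi-binomial model with moderated dispersion (6 residual degrees of freedom), the promoter test limma 3.58.1 (R 4.3.3) with 1 added to each read sum, both with Benjamini-Hochberg adjustment over the whole table. Single values used the exact two-sided permutation test over 70 arrangements. The tests were tried on simulated data first. Python 3.11.15, numpy 2.4.6 and pandas 2.3.3 were used.

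Members and lists were chosen with earlier results of these data known. Genes were named by a rule: Itgb1, members past the 20% rule, the 5 largest positive and negative differences, the highest and lowest of each family, the 3 with most cytosines, the 3 with the largest difference between library sets, sperm Adam genes and symbol matches. Others are marked where named. The threshold, coverage minimum, merging of strands, weighting, library sets, scale and each line were varied. Leaving out CCGG was added after the data were seen.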

Additional observations from a re-analysis of the deposited data

Results flagged for a closer look

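Within the groups of 4 lines, 1 line far from the other 3 was looked for with Dixon's test in 38 quantities (promoter levels of the named genes, the means over members and the 2 cytosines past the 20% rule), or 76 groups, of which chance gives about 5%. It was met by 2. The promoter level of Col1a1 in control-F1 line 37 was 6.76%, against 21.7% to 22.8% in the other 3 of its group. Of the 4 Col1a1 cytosines, the CCGG cytosine at position 94936164 had 12.9% in line 37 and 60.4% to 84.6% in the other 7 lines. The promoter level of Adam6b in ICSI-F1 line 11 was 96.3%, and the other ICSI-F1 lines had 98.9% to 99.3%.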

How the results depend on the processing

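The 2 cytosines past the 20% rule depended on its settings. The count was 6 at 15 points, 0 at 30 points, 4 with no exclusion of reversed lines, 0 with every ICSI-F1 line beyond every control-F1 line, 5 from summed reads, 1 at a coverage of 20 or more, 0 at 30 or more and 1 with strands merged. In library set 1 alone it was 16, in set 2 alone 5, and with 1 line left out 1 to 8 (8 without control-F1 line 44, 5 without line 45, 5 without ICSI-F1 line 11, 6 without line 17 and 1 without line 21). Hypomethylated cytosines were 2 at 15 points, 1 in library set 1 alone and 0 to 1 with 1 line left out. The cause was not tested. The share of all promoter cytosines past the rule was not computed at these other settings. These counts therefore cannot be read as particular to the members. Site and promoter tests gave 0 members under every alternative run. Over the whole table the promoter tests gave 0 as well, and the site tests at most 80 of 155863 cytosines, at a coverage of 30 or more. At such shares 0 members says little. The exact permutation test, with a smallest p of 0.0286, could pass promoters after adjustment only if most of the table reached that p. For library sets, 4 members passed and 0 (0 to 0) did with any line left out.

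The member mean difference ran from −0.344 to 0.644 points over the settings, and from −0.558 to 1.13 with 1 line left out, within 1 SD of the reported value. Itgb1 was 0.0306 points above the median of the others and, within CpG islands, −1.77 points from their mean, against −8.30 points from the mean over all promoters. Of 266 values of the 34 named genes, 252 moved by under 1 SD between lines, and 9 changed sign by more: Adam6a (1.11), Col18a1 (0.961) and Col23a1 (0.138) in library set 1, Adamts1 (0.611) and Itgb1 (−0.087) in set 2, and Itga1 at a coverage of 20 or 30 (−0.137 at both), with strands merged (−0.195) and outside CCGG (−0.109). Counting smaller moves, the sign changed in 33 of the 266 values, in 18 genes. With 1 line left out it changed in 30 of 272 values, in 17 genes. Among these 272, the exact permutation p reached 0.0286 in Col1a2, Col23a1, Col26a1, Itga1 and Itga7. That is the smallest p possible with a line left out, and the share among all promoters was not computed. No paired analysis was possible because the groups share no line number. The Col1a2 cytosine had 10 scaled reads in 1 line.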
